A study of Mus musculus with 10 samples.

Results

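Open chromatin domains that were broad in all 4 groups of mouse neural stem cells were examined. Autosomal peaks of at least 1500 bp were taken from the control female list, and each had to overlap, by at least 1 bp, a peak of at least 1000 bp in every other list. The rule was met by 896 of 126111 autosomal control female peaks, or 0.710%, and these domains covered 1597249 bp, or 3.18% of the peak sequence. Length therefore chose the domains, and their lengths below are a description without a test.

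ATAC-seq was used to map accessible DNA: a transposase inserts sequencing adapters where DNA is free of nucleosomes. The neural stem cell lines came from E14.5 embryos of C57BL/6 mice carrying floxed alleles of Smchd1, a chromatin protein best known for its part in silencing of the inactive X chromosome. The groups were Smchd1 fl/fl females, the control females (3 libraries), Smchd1 del/del females, the deleted females (3 libraries), Smchd1 fl/fl males, the control males (2 libraries), and Smchd1 del/del males, the deleted males (2 libraries). The same protocol text accompanied all 10 samples: a retrovirus brought Cre recombinase and puromycin resistance into established lines, puromycin was added after 24 h, and cells were harvested on day 7. The labels do not state whether the control cells were transduced. The free-text description of the male samples calls them female, whereas their titles and sex field read male. The study set deleted against control cells in females, and in females and males together.

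The authors deposited 1 peak list for each group, called on pooled reads, so no value below has a replicate error and no p-value was computed. Of the filtered tags behind the lists, the females gave 144613215 (control) and 139318421 (deleted), the males 91734730 (control) and 74674218 (deleted). In that order they held 126111, 100826, 98744 and 86015 autosomal peaks with median lengths of 286, 284, 290 and 285 bp. A peak that is open in fewer cells and a peak that is less open in every cell cannot be told apart in such bulk data. A peak does not measure RNA, so the cell type could be set only against open gene ends. Of 35 regulators of neural stem cells, 34 had a control female peak within 1 kb of an end, as did 13 of 20 markers of microglia, blood, endothelium and fibroblasts and 17 of 19 neuron genes. Over all autosomal protein-coding genes 14803 of 20661, or 71.6%, had one, so these counts do not tell the cell type.

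Most mammalian promoters fall into a class rich in the dinucleotide CpG, the CpG islands, or into a class poor in it. CpG islands tend to stay unmethylated, are short of stable nucleosomes and can be open in many cell types, while CpG-poor promoters and distal enhancers usually open in fewer cell types and over a shorter stretch. Factors with zinc fingers such as the Sp and Klf families bind the GC box, GGGCGG, that many CpG islands carry.

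The 250 bases before the annotated start are printed for 6 domains: the first 3 belong to the longest domains that held the start of a protein-coding gene, to show the composition under the widest peaks, and Klf13, Hnrnpk and Sox11 to domains of the gene groups described later. The sequences are RefSeq's, from the assembly GRCm38.p6, each written 5′ to 3′ on the strand of the gene with every CpG in capitals, and all 6 lie on the minus strand.
LOC108167694: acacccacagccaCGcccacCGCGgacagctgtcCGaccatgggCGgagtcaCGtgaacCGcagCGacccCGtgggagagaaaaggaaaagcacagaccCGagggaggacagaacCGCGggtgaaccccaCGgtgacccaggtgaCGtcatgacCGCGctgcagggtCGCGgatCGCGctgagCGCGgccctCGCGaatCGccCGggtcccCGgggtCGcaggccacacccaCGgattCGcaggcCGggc
Chst2: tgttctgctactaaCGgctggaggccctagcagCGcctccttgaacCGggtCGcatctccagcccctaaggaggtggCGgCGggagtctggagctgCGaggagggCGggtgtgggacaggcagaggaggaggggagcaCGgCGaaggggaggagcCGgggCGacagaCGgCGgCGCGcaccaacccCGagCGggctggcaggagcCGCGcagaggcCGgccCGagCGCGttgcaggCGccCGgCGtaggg
Sp3: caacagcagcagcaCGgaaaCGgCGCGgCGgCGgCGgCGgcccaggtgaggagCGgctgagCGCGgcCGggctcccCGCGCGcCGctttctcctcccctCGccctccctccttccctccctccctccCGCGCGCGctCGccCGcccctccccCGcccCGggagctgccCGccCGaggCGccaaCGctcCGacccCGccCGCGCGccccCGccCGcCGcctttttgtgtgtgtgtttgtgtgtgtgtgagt
Klf13: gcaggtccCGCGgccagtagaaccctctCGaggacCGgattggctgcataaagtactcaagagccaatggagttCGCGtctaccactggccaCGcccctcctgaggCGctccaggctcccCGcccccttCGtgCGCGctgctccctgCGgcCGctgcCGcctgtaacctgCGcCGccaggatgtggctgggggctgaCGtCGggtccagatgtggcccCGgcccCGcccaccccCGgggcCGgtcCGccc
Hnrnpk: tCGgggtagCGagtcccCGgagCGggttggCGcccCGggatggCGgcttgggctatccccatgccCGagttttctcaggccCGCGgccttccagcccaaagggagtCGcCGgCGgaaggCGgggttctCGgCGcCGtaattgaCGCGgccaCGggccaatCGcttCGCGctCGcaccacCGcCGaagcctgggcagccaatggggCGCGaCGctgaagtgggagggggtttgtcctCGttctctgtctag
Sox11: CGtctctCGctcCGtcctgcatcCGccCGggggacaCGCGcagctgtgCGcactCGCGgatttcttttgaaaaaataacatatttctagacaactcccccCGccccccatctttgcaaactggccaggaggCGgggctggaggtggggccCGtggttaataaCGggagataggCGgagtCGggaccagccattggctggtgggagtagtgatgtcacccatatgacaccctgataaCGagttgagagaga

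The first window, at chr9:124423401-124423650, belongs to the uncharacterised gene LOC108167694 and holds 31 CpG sites with 1 GC box on either strand. Chst2, which encodes a sulfotransferase of sugar chains, has its window at chr9:95407271-95407520 with 27 CpG sites and 1 GC box. Sp3 encodes a GC-box factor itself, and its window at chr2:72979282-72979531 holds 37 CpG sites and 5 GC boxes. Klf13, another zinc finger factor of the same superfamily, has 24 CpG sites and 3 GC boxes at chr7:63938916-63939165. Hnrnpk, an RNA- and DNA-binding protein, has 30 CpG sites and 0 GC boxes at chr13:58402118-58402367, which says only that these letters are not in this window. The Sox11 window, at chr12:27342719-27342968, holds 17 CpG sites and 2 GC boxes, and its GC content of 58.0% is the lowest of the 6, against 77.2% for Sp3. Sox11 encodes an SRY-box factor of neural precursors. The domain reached 1802 bp before the Sp3 start and 733 bp after it, but 677 bp before and 1938 bp after the Chst2 start.

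Promoters in the domains were richer in GC and in CpG than promoters under shorter peaks or under none. A window of 300 bases (250 before and 50 after the start) lay with its start in a domain for 987 promoters, chromosome 18 being not used here. A gene can have more than 1 promoter. Their median GC content was 69.3%, against 59.0% for 8805 promoters under a control female peak shorter than 1000 bp and 47.0% for 16509 promoters under no peak. The median number of CpG sites was 30, 17 and 3 in these groups. The ratio of observed CpG to the number expected from base composition had a median of 0.888 in the domains, 0.689 under the shorter peaks and 0.202 under no peak. A ratio of at least 0.6, a usual limit for a CpG island, was reached by 91.9%, 61.0% and 4.99% of the promoters. The median ratio was higher in each wider class, with 0.429 under peaks of 150 to below 500 bp, 0.741 at 500 to below 1000 bp and 0.842 at 1000 to below 1500 bp. GC content, CpG count and this ratio share their bases and are 1 property seen in several ways.

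**Figure D1:**
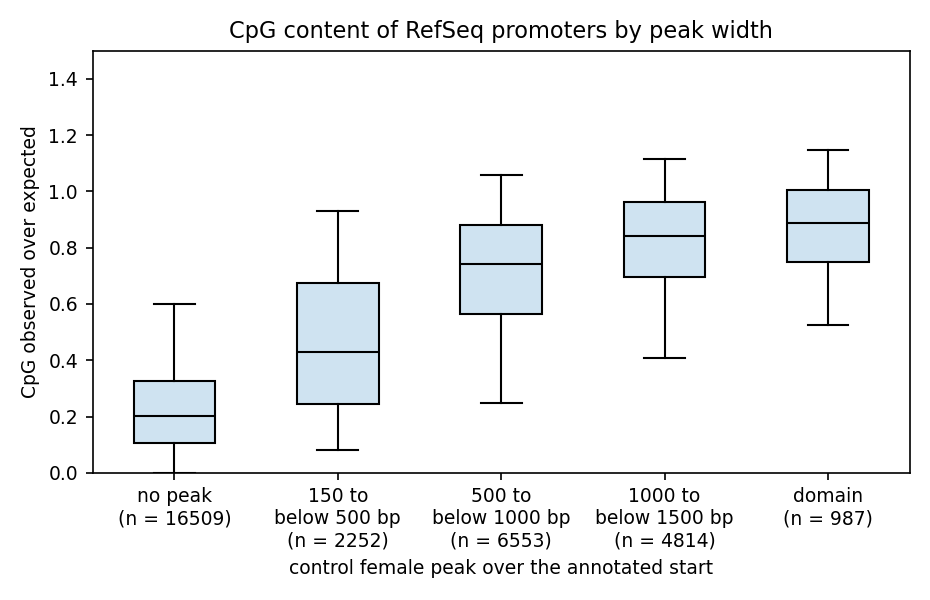
Ratio of observed to expected CpG (y axis, no unit) in 300-base RefSeq promoters, grouped by the control female peak over the start (x axis, peak length in bp, number of promoters in brackets); boxes span the quartiles, the line is the median, and whiskers span the 5th to 95th percentile. The median rises from 0.202 under no peak to 0.888 in the domains.

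Motifs of 5 to 7 letters were read on both strands in the 300-base windows, and none of the 9 contains another. The GC box GGGCGG occurred in 80.1% of the domain promoters, in 56.8% of those under shorter peaks and in 35.7% of all 32851 promoters of the table. CCAAT, the box bound by the NF-Y complex, was found at similar shares of 36.3%, 38.1% and 37.4%. TATAAA, the core of the TATA box, was found in 3.14% of the domain promoters against 7.52% and 13.6%. TGACTCA, the site of AP-1, stood at 2.03%, 4.10% and 5.20%. The ETS-type CCGGAAG was present in 12.1% of domain promoters, below the 16.7% under shorter peaks and above the 8.86% of the whole table. The shares in domain promoters of the CRE-type TGACGT, the NRF1-type GCATGCG, the YY1-type AAGATGG and the E-box CACGTG were 9.63%, 5.07%, 5.47% and 9.32%. Under the shorter peaks these 4 motifs stood at 10.7%, 5.80%, 6.76% and 9.99%. A GC-rich window holds GC-rich letters more often, so the GC box share and the GC content are not separate observations.

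Nearly all domains lay at genes. An end of a gene fell inside the domain or within 1 kb of it for 758 of 896 domains, 84.6% (82.1% to 86.9%, 95% exact binomial interval, counting error only), against 20.8% of all autosomal control female peaks. The share climbed with peak length from 13.4% at 150 to below 500 bp to 36.0% at 500 to below 1000 bp, 73.5% at 1000 to below 1500 bp and 80.7% at 1500 bp or more. Of the other domains, 109 lay inside a gene away from its ends and 29, or 3.24%, outside genes, against 32.9% of all peaks. On the chromosomes of the promoter table, 67 of 103 domains inside genes still held an annotated start. An annotated start lay within 650 of 865 domains on those chromosomes, 75.1%, against 9.67% of all peaks. Domains were found on all 19 autosomes, at 0.534% (chromosome 4) to 0.975% (chromosome 19) of the peaks.

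Divergent gene pairs, in which 2 genes start close together on opposite strands, were annotated in part of the domains. Starts on both strands were annotated in 172 of the 650 domains with a start, 26.5%, against 11.0% of peaks with a start at 500 to below 1000 bp and 20.3% at 1000 to below 1500 bp. The genes with an end at a domain were 846 protein-coding genes, 178 long noncoding RNA genes, 14 tRNA genes, 11 microRNA genes and smaller numbers of other classes. For the 407 domains with a single annotated start, the domain ran a median of 680 bp before the start and 1011 bp after it, and 71.3% ran farther into the gene than before it. The same lean, 72.8% and 73.5%, was seen in peaks of 500 to below 1000 bp and of 1000 to below 1500 bp. The summit, the highest point of the peak, lay at a median position of -89 bp relative to the start in the domains, against -19 bp and -34 bp in those shorter classes.

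Length differed between the lists in the order of their depth. The median domain was 1707 bp long in control and 1610 bp in deleted females, and 1536.5 bp in control and 1469 bp in deleted males, where the longest peak overlapping the domain was taken. The quartiles were 1589.75 and 1897 bp (control) and 1485.75 and 1781 bp (deleted) in females, and 1381 and 1692.25 bp (control) and 1284 and 1631 bp (deleted) in males. All 896 domains reached 1500 bp in the control females by rule, and 647, 520 and 399 did so in the other lists. In all 4 lists together 332 domains reached 1500 bp and 25 reached 2000 bp. The rule set 1500 bp in control females and 1000 bp elsewhere, which by itself leans the control female lengths upward. The number of tags fell in the same order as the lengths, and its part in the lengths was not tested.

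**Figure D2:**
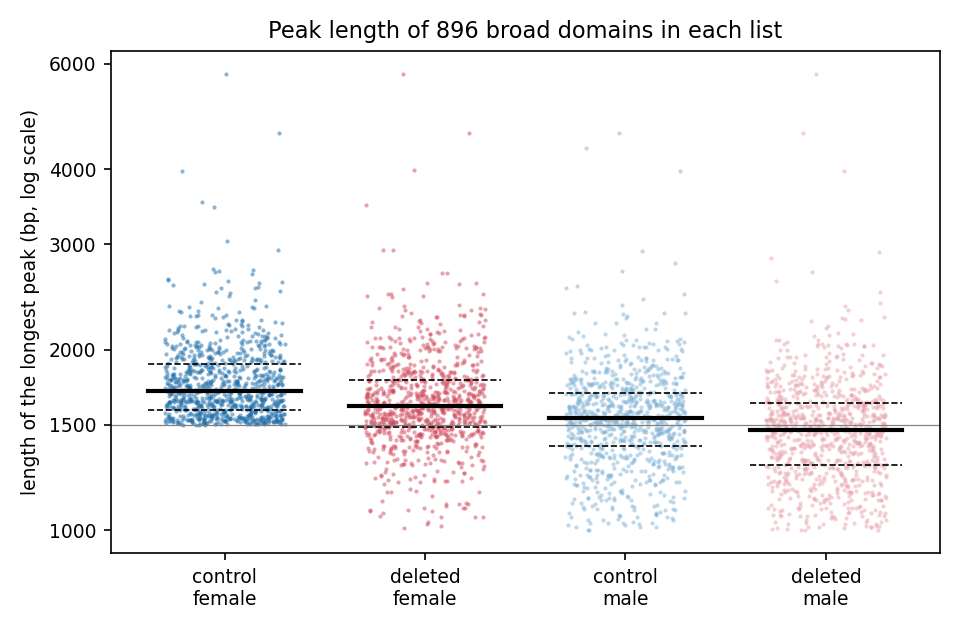
Length of the longest overlapping peak (y axis, bp, log scale) for each of the 896 domains in the 4 lists (x axis); points are domains with sideways jitter, thick lines are medians, dashed lines quartiles, and the grey line marks 1500 bp. The medians step down from 1707 bp in control females to 1469 bp in deleted males.

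The counterparts were broken into pieces more often in the shallower lists. A domain was covered by at least 2 separate peaks in 103 deleted female, 177 control male and 219 deleted male cases, which are 11.5%, 19.8% and 24.4% of the domains. With the pieces summed, the medians were 1707, 1630, 1578 and 1531.5 bp in the order above, closer together than for the longest piece. A single peak covered the domain in every list for 587 domains, and 309 were broken somewhere. Neighbouring peaks were never closer than 54, 64, 63 and 60 bp in these lists, 1 bp more than the tag size in each header (53, 63, 62 and 59 bp). A gap that was bridged in one list could therefore stand open in another, and the part of this in the lengths was not tested.

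Just inside the limits of the rule, Med26, a Mediator subunit, had 1500 bp in control females and 1300, 1341 and 1332 bp in deleted females, control males and deleted males. Bmpr1a, a BMP receptor, entered with 1501, 1400, 1456 and 1256 bp. Just outside, Sox21, an SRY-box factor of neural progenitors, had 1499, 1524, 1115 and 1253 bp and missed by 1 bp in the control females. Fermt2, an integrin adaptor, missed likewise with 1499, 1400, 1413 and 1267 bp. Fgf10, a growth factor gene, was long enough in the females with 1502 and 1464 bp but stood at 910 and 615 bp in the males. Of 1242 control female peaks of at least 1500 bp, 346 missed the rule, and each of them had a counterpart in all lists. The counterpart was shorter than 1000 bp in deleted females for 107, in control males for 192 and in deleted males for 270 of them. The summed pieces reached 1000 bp in every list for 272 of the 346.

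The longest domains included repeated sequence with edges that hardly moved. The longest lay at the ribosomal RNA genes Rn18s-rs5 and AY036118 (chr17:39843026-39848802), with 5777 and 5773 bp in control and deleted females and 4335 and 5772 bp in control and deleted males. The control male value alone was lower, where the domain was in 2 pieces. The domain at Gm10222 and Gm10925 (chr1:24611557-24616161), known as a nuclear copy of mitochondrial DNA, measured 4605, 4602, 4604 and 4598 bp. Its pileup, the authors' height of stacked tags, was 300 in all lists, the highest value that occurs in any of them. Another lay 10.6 kb from Gm9637 (chr14:19415704-19419672) with 3969, 3982, 3975 and 3969 bp. The domain inside Myo3a, a myosin gene, (chr2:22587294-22590227) had 2934, 2934, 2923 and 2915 bp. Reads from near-identical copies elsewhere in the genome can be placed here or there, so the values at Rn18s-rs5 and Gm10222 are uncertain. The pileup was also near 300 inside Myo3a, at 292, 290, 289 and 285, and near Gm9637 it was 269, 276, 260 and 250. Whether reads at these 2 domains have copies elsewhere was not tested.

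Several other long domains were shorter in the males. Chst2 (chr9:95405332-95407947) had 2616 and 2526 bp in the control and deleted females and 2377 and 2393 bp in the control and deleted males. Sp3 with its antisense partner Sp3os (chr2:72978548-72981083) had 2536, 2478, 2301 and 2327 bp in that order. The domain at LOC108167694, 4930526I15Rik and Gm20783 had 3524 and 3482 bp in the females but 2259 and 2267 bp in the males, where it was in 2 pieces in both lists. A domain on chromosome 1 (chr1:171063718-171066174) joined the end of Fcgr3, an Fc receptor gene of myeloid cells, with a cluster of tRNA genes and Mir6546, and measured 2457, 2585, 2296 and 2233 bp. 2700054A10Rik on chromosome 17 held 2699, 2684, 2712 and 2697 bp, with no order by sex or genotype.

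**Figure D3:**
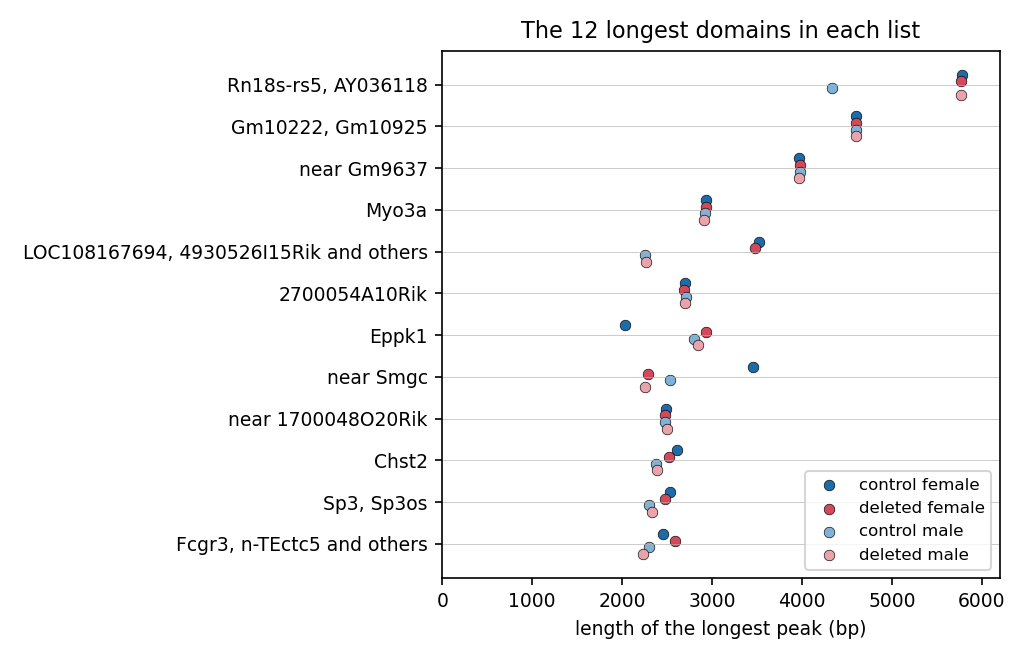
Length of the longest overlapping peak (x axis, bp) in each of the 4 lists for the 12 domains with the greatest mean length (y axis, names of the genes at or nearest the domain); each point is 1 list. The points coincide at Gm10222 with 4598 to 4605 bp and lie apart at Eppk1, with 2027 bp in control females against 2795 to 2935 bp elsewhere.

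Fixed edges were the exception. Both edges stayed within 20 bp across all lists in 8 domains and within 100 bp in 205. The 8 included Memo1, a regulator of cell motility, with 1795, 1773, 1782 and 1780 bp, Kansl1, a subunit of a histone acetyltransferase complex, with 1639, 1609, 1615 and 1633 bp, and Cdh2, which encodes N-cadherin of neural precursors, with 1841, 1804, 1833 and 1815 bp. These were named after their values were seen. The summits of the 4 lists spanned a median of 57 bp, and they fell within 50 bp of one another in 409 domains, 45.6%.

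Deleted counterparts were slightly shorter than control ones at the median domain in both sexes. The log2 ratio of deleted over control length had a median of -0.058 in females, with quartiles of -0.16 and -0.016, and 747 domains (83.4%) were shorter, 145 longer and 4 equal. In males the median was -0.038 with quartiles of -0.14 and 0.018, and 595 (66.4%) were shorter, 298 longer and 3 equal. All 67609 autosomal peaks shared by the lists had medians of -0.15 in females and -0.11 in males, and 77.0% and 68.2% of them were shorter in the deleted list. Set against that common shift, the domains lay at 0.091 and 0.069, so the direction depends on whether lengths are taken as they are or relative to all shared peaks. In females the rule asked for a longer peak of the control than of the deleted list, which leans the ratio below 0. In males both lists had the same minimum. The rule also left out peaks whose counterpart was shorter than 1000 bp in any list, a minimum that the other shared peaks did not have, so a smaller median shortening in the domains is fixed in part by the selection. Of the 407 domains with a single start, the upstream part was shorter in deleted cells for 74.4% in females and 66.6% in males, and the part after the start for 79.9% and 63.1%. In peaks of 1000 to below 1500 bp with a single start these shares were 75.2% and 66.5% upstream and 73.5% and 63.8% after the start.

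Few domains were longer by 25% or more, or shorter by 20% or more, in the deleted than in the control list; these limits, the same fold in either direction, are meant by wider and narrower below. In deleted females 97 domains, 10.8% (8.87% to 13.0%, exact interval), were narrower, where 29.7% of all shared peaks were. In deleted males 108 domains, 12.1% (9.99% to 14.4%), were narrower, against 26.3% of all shared peaks. Both sexes shared 16 of these, 1.79% of the domains (1.02% to 2.88%), against 10.9% of shared peaks. Wider were 3 domains in females (background 5.66%) and 42 in males (background 8.27%). By the rule a domain is a single peak in the control female list, while its control male counterpart can be in pieces. The female and male counts of wider domains are therefore not comparable. None was wider in both sexes, a count of 0 that allows up to 0.411% by the exact interval, against 1.2% of shared peaks. The 5723 shared peaks of 1000 to below 1500 bp stood between, with 22.7% narrower in females and 18.8% in males. A longer peak needs a larger shift in bp to pass the same fold, which sets these shares in part by length. The 1000 bp minimum of the rule also removed strongly narrowed peaks from the domains and not from the background, so the lower shares are no result about the domains.

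The larger differences went with broken peaks. Of the 97 domains narrower in deleted females, 76 were in pieces in the deleted list, and the median log2 ratio of their summed lengths was -0.15. Of the 108 narrower in deleted males, 91 were in pieces in the deleted list, with -0.14 for the sums. Of the 42 wider in deleted males, 39 were in pieces in the control male list, and the summed ratio was 0.11. When pieces were summed, 23 domains in females, 27 in males and 2 in both were narrower, against backgrounds of 27.7%, 25.2% and 10.1%. By the same sums 4, 6 and 1 were wider (backgrounds 5.78%, 7.73% and 1.27%).

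**Figure D4:**
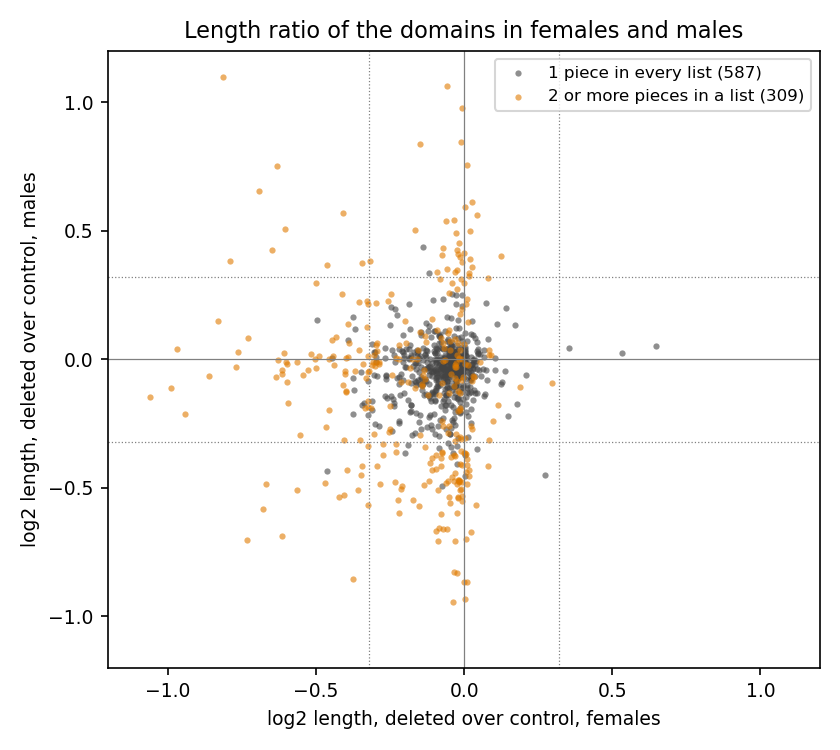
Log2 ratio of deleted over control length in females (x axis) and males (y axis) for 896 domains; grey points are the 587 domains in 1 piece in every list, orange points the 309 in at least 2 pieces in a list, and dotted lines mark 25% longer and 20% shorter. The grey points crowd near 0, while most points beyond the dotted lines are orange.

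Among domains narrower in both sexes, Fam20c, a kinase of secreted proteins (chr5:138754373-138756232), had 1860 bp in control and 1120 bp in deleted females, and 1769 bp in control and 1087 bp in deleted males. Both deleted lists held it in 2 pieces, and the log2 ratios were -0.73 and -0.70. Yy1, a zinc finger factor of promoters and of chromatin loops (chr12:108792141-108794762), measured 2622 and 1713 bp in females and 1634 and 1015 bp in males, with ratios of -0.61 and -0.69. It was in 1 piece in control females, 2 in deleted females and control males, and 3 in deleted males. With pieces summed the ratios were -0.28 and -0.28 at Fam20c and -0.068 and -0.15 at Yy1. Adcy8, a brain adenylyl cyclase, had 1996 and 1539 bp in females and 1828 and 1012 bp in males. Samd4, which encodes an RNA-binding repressor, shared its domain with Gm34934 and had 1617 and 1018 bp in females and 1409 and 1007 bp in males. Their summed ratios were -0.11 and -0.11 at Adcy8 and -0.14 and -0.094 at Samd4. A domain on chromosome 16 with no gene end within 50 kb had 1707 and 1067 bp in females and 1688 and 1128 bp in males. Both deleted lists held that domain in 2 pieces, with sums of 1581 bp in females and 1593 bp in males.

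At other domains 1 sex carried most of the difference in the longest piece. Tsc22d2 had 3036 bp in control females against 1457 bp in deleted females, 1382 bp in control males and 1248 bp in deleted males, so the control female value alone stood high. The other lists held it in 2 or 3 pieces, and its summed lengths were 3036, 2709, 2457 and 2500 bp. Tmtc1, an endoplasmic reticulum protein, showed the same form with 2160, 1089, 1099 and 1016 bp, as did Acvr2b, an activin receptor, with 2076, 1082, 1225 and 1056 bp. Both were in pieces outside the control female list, with sums of 2160, 1866, 1767 and 1619 bp at Tmtc1 and of 2076, 1860, 1692 and 1522 bp at Acvr2b. Toward greater length, Kpnb1, the nuclear import receptor importin beta, had 1837 and 1849 bp in females but 1067 and 1802 bp in males. The control male list held it in 3 pieces. Kif1a, a motor of axonal transport, had 1812 and 1867 bp in females and 1164 and 1717 bp in males, and Shb, an adaptor of receptor signalling, 1793, 1819, 1123 and 1589 bp. In each of these 3 domains the control male value was the lowest, and that list held it in pieces, with summed log2 ratios in males of 0.11 at Kpnb1, 0.0076 at Kif1a and 0.19 at Shb. Ing2, a reader of histone methylation, stood high in a single list without pieces, with 1716 bp in control and 2689 bp in deleted females, against 1482 and 1538 bp in males.

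Strength was ranked by the authors' −log10 q among the 88159 strongest peaks of each list, rank 1 being the strongest. The domains were not as high by strength as by length. The median domain held rank 9255 in control and 7699.5 in deleted females, and 9180.5 in control and 7689.5 in deleted males. By length in the same lists the median domain held rank 605, 604.5, 537.25 and 507. The rule chose the domains by length, so their high ranks by length, and this contrast with strength, were set by the selection. The strongest 1000 peaks contained 22, 47, 29 and 61 of the domains, and the strongest 10000 contained 479, 545, 490 and 542. Fold enrichment, the authors' ratio over the local background, had medians of 5.75, 5.82, 6.78 and 7.01 in the same order, higher in the shallower male lists.

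The domains stood nearer the top of the deleted lists than of the control lists in both sexes. In females 671 of 896 held a better rank in the deleted list, where 46.8% of all shared peaks with ranks did, and the median difference was -1249 ranks (quartiles -3046 and 25.8). In males 630 did so (background 49.8%), with a median of -955 ranks (quartiles -2833 and 283). A better rank in both sexes was found for 486 domains, 54.2%, against 26.5% of shared peaks, and a worse rank in both for 81, against 29.9%. A worse rank in females was held by 225 domains (background 53.1%) and in males by 265 (background 50.2%). With a rank number at least 20% smaller, 430 domains in females, 384 in males and 213 in both stood higher in the deleted list (backgrounds 21.0%, 24.0% and 7.85%). With a rank number at least 25% larger, 87, 114 and 10 stood lower (backgrounds 25.2%, 24.6% and 8.51%). A rank depends on all other peaks of its list as well as on the domain. The rule did not use −log10 q, but width and q come from the same reads of the same 4 lists. The rule also asked for a counterpart of at least 1000 bp in each deleted list. The background and the narrow peaks below had no such minimum.

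Domains ranked better in the deleted list more often than narrow peaks of like strength, by a small margin among the weakest in males. Among domains of control rank up to 2500, 72.4% of 98 in females and 67.2% of 119 in males ranked better in the deleted list. Narrow peaks, shorter than 1000 bp, at gene ends in the same range of ranks stood at 35.2% and 35.6%, and narrow peaks elsewhere at 29.0% and 26.5%. At control ranks from 10000 to 20000 the domains stood at 70.5% and 65.4%, narrow gene-end peaks at 46.9% and 57.7%, and narrow peaks elsewhere at 37.8% and 37.8%. Beyond rank 40000 all 20 such domains in females and 15 of 23 in males (65.2%) ranked better in the deleted list, against 54.0% and 62.1% of narrow gene-end peaks and 54.3% and 59.1% of narrow peaks elsewhere. Width went along with the shift among peaks at ends of protein-coding genes. In females 46.8% of peaks of 150 to below 500 bp ranked better in the deleted list, 56.7% of those of 1000 to below 1250 bp and 71.5% of those of 1500 bp or more. In males these shares were 54.0%, 57.4% and 67.9%.

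**Figure D5:**
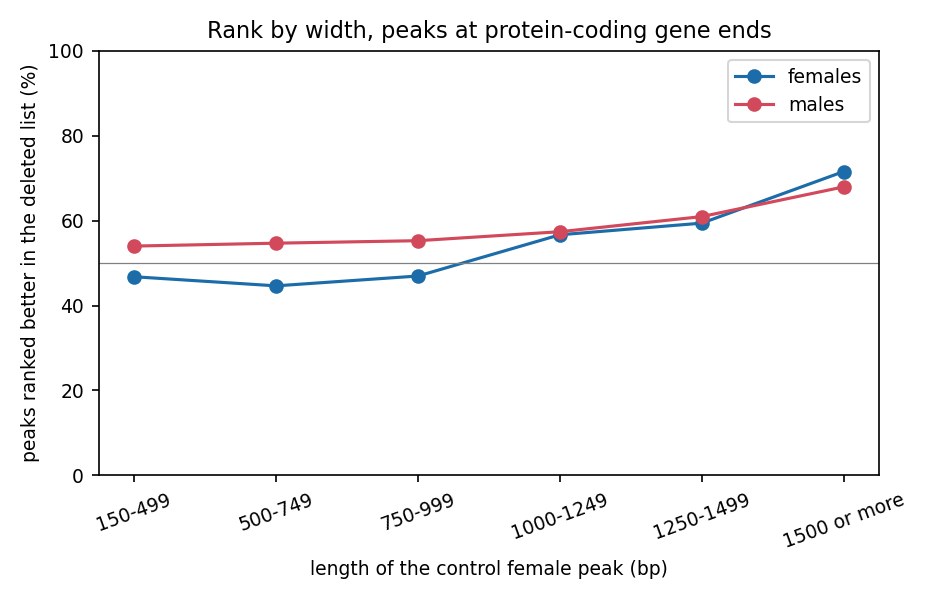
Share of peaks at ends of protein-coding genes with a better rank in the deleted than in the control list (y axis, percent) by the length of the control female peak (x axis, bp), for females (blue) and males (red); the grey line marks 50%. The shares rise to 71.5% in females and 67.9% in males in the class of 1500 bp or more.

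The shift was also seen within groups of like GC content. With peaks over a start grouped by GC content of the promoter, 72.4% to 79.8% of the domains ranked better in deleted females in every group, against 42.9% to 50.5% of narrow peaks. In males the ranges were 66.1% to 73.0% for the domains and 50.5% to 61.0% for narrow peaks. Domains at gene ends, inside genes and outside genes ranked better in deleted females at 74.8%, 75.2% and 75.9%. In males the shares were 71.4%, 68.8% and 48.3%, the last over 29 domains. Depth, tag size and the number of peaks in a list also differed between deleted and control lists in both sexes, and their part in the ranks was not tested.

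The strongest domain lay inside Fer, a cytoplasmic tyrosine kinase gene (chr17:63863212-63864739), at rank 193 in control and 115 in deleted females, and 84 in control and 83 in deleted males. It held an annotated start of Fer, with 769 bp before the start and 758 bp after it. The domain shared by Zfp654 and Cggbp1, which encodes a protein that binds CGG repeats, held ranks 567, 185, 268 and 173. Pcf11, a factor of transcript cleavage and termination, held ranks 419, 294, 210 and 270, and B3galnt2, a glycosyltransferase of dystroglycan, 623, 331, 357.5 and 320. Megf9, a neural membrane protein, held 380, 528, 393 and 279, and was the only one of these 5 with a worse rank in deleted females.

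The domains of the worst rank include 1 on chromosome 3 with no gene end within 50 kb, at ranks 78825, 47279.5, 59110 and 67158.5, and another inside Eppk1, an epithelial cytolinker gene, at 56479, 45490, 56019 and 43913. Low rank came with a long peak at Eppk1, which measured 2027, 2935, 2795 and 2846 bp. The domain on chromosome 3 measured 1745, 1904, 1176 and 1555 bp and held place 407 by mean length among the domains. It was in pieces outside the control female list.

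Of 20661 autosomal protein-coding genes 846 had a domain at an end, a background of 4.09%. The counts of the gene groups likewise take only domains at a gene end, so a domain inside a gene away from its ends was not counted. Regulators of neural stem cells had one in 5 of 35 genes. Rest, the repressor of neuronal genes, had 1814 and 1684 bp in control and deleted females and 1659 and 1584 bp in control and deleted males. Zbtb20, a repressor of hippocampal and glial development, had 1617, 1543, 1557 and 1563 bp in that order. Sox11 had 2169, 2188, 1605 and 1774 bp, and Gli3, the mainly repressing Hedgehog factor, 1858, 1766, 1753 and 1364 bp. The fifth, Bmi1, a Polycomb protein of stem cell renewal, had 1608, 1612, 1583 and 1155 bp. The deleted male value was the lowest at Rest, Gli3 and Bmi1, the deleted female value at Zbtb20 and the control male value at Sox11. At Gli3 and Sox11 that lowest value is the longer of 2 pieces, which sum to 1698 bp at Gli3 and 1897 bp at Sox11.

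Fox, Zic, Klf and Sox factors had a domain in 7 of 30 genes. Klf13 had 2671, 2276, 1757 and 1763 bp by the longest piece, lower in males than in females. It was in 1, 2, 2 and 3 pieces in that order, with sums of 2671, 2500, 2113 and 2301 bp. Zic2 and Zic5, zinc finger factors of the dorsal neural tube, have neighbouring domains 8117 bp apart (chr14:122463866-122475956). Zic2 had 2000 and 2037 bp in females and 1021 and 1561 bp in males, while Zic5 had 1975, 1382, 1371 and 1389 bp. Zic2 was in 2 pieces in both male lists, with sums of 1713 and 1833 bp. Zic5 was in 2 pieces in every list but the control female one, with sums of 1873, 1848 and 1832 bp. The only other domains within 10 kb of one another were 4525 bp apart in a histone cluster on chromosome 3. H3c15 and H2ac19 held 2139, 2089, 1255 and 1169 bp there, and H2ac18 and H3c14 held 2197, 2183, 1137 and 2042 bp. The control male value at H2ac18 and H3c14 is the longer of 2 pieces, which sum to 1960 bp. Patterning homeobox genes had a domain in 2 of 35, at Pou3f1, a POU factor, with 2188, 2015, 1326 and 1201 bp, and at Pbx3, a Hox cofactor, with 1846, 1774, 1626 and 1822 bp.

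Chromatin genes held several domains. Polycomb genes had one in 6 of 28: Ezh2, the H3K27 methyltransferase, had 1675, 1594, 1619 and 1542 bp, and Jarid2, its cofactor, 1653, 1586, 1641 and 1451 bp. Phc1, Aebp2, Pcgf5 and Bmi1 were the others. The list of Smchd1, cohesin and CTCF genes had 4 of 12. Ctcf, the insulator factor, had 1592, 1568, 1560 and 1581 bp, Hnrnpk, which takes part in Xist-dependent silencing, 1996, 2070, 1837 and 1864 bp, and Pds5a, a cohesin regulator, 1937, 1812, 1429 and 1062 bp. Ctcf and Hnrnpk hardly differed by genotype, while Pds5a was lower in the males. Pds5a was in 2 pieces in control and 3 in deleted males, with sums of 1779 and 1417 bp. A domain lay at an end of Smchd1 itself (chr17:71474477-71476105) with 1629, 1358, 1378 and 1322 bp and ranks 597, 754.5, 1226 and 271. The labels do not name the deleted part of Smchd1, and this peak is no check of the deletion. Tet1 and Tet3, which oxidise methylcytosine, were the 2 of 12 DNA methylation genes with a domain at an end. Tet1 had 1530, 1081, 1102 and 1355 bp and Tet3 1512, 1418, 1291 and 1327 bp. The domain inside Dnmt3a, described in the closing section, is not in this count. At Tet1 the deleted female and control male values are each the longer of 2 pieces, which sum to 1319 and 1354 bp.

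Cell cycle genes had a domain in 3 of 20: Cdkn2a, which encodes the proteins of the Ink4a and Arf reading frames, with 1701, 1652, 1639 and 1391 bp, Ccne2, cyclin E2, with 1673, 1513, 1412 and 1506 bp, and E2f1, a factor of S-phase entry, with 1648, 1211, 1013 and 1068 bp. The control male value at E2f1 is the longer of 2 pieces, which sum to 1472 bp. Immediate early genes had 3 of 26, at Jund, Egr1 and Zfp36l2. Jund, an AP-1 subunit, stood at 1950 and 1892 bp in females and 1044 and 1003 bp in males, and Egr1, an activity-induced factor, at 1926, 1831, 1108 and 1040 bp. Both were in pieces in both male lists. Notch and Hedgehog genes had 2 of 24, Hey1 and Gli3, and FGF and EGF feedback genes 1 of 20, Spred1, an inhibitor of Ras signalling, with 1887, 1811, 1864 and 1760 bp. Imprinted genes had 1 of 29, Ube3a, a ubiquitin ligase, with 1653, 1621, 1473 and 1386 bp, and ribosomal protein genes 1 of 43, Rpl7, whose domain also holds an end of Rdh10.

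Several groups had no domain at a gene end. The counts were 0 of 39 Hox genes, 0 of 19 neuron genes, 0 of 18 astrocyte and radial glia genes, 0 of 13 oligodendrocyte lineage genes, 0 of 18 housekeeping genes, 0 of 4 NFI genes and 0 of 20 markers of microglia, blood, endothelium and fibroblasts. Peaks were present at the ends of most of these genes. The median length of the longest control female peak at an end, over the genes that had one, was 394 bp for Hox, 577 bp for neuron, 596.5 bp for oligodendrocyte, 804 bp for astrocyte and radial glia, 814 bp for housekeeping and 522 bp for the last-named genes, against 882 bp for all protein-coding genes. The NFI genes stood above that, with 1275 bp over 3 genes. A control female peak of at least 1500 bp lay at 2 housekeeping genes, 1 oligodendrocyte gene and 1 astrocyte gene without meeting the rule in the other lists. It was 1301 bp for Polycomb genes and 1330 bp for the Smchd1, cohesin and CTCF genes. With a background of 4.09%, small lists hold few domains even at that share, and no count is read as particular to its list.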

How the data were processed

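ATAC-seq libraries of 10 neural stem cell samples were pooled by the authors into 1 peak list per group. The submitters' processing notes name mm10 and, without their roles, the tools edgeR, MACS2, Picard, Bowtie2 2.2.5, SAMtools, Trim Galore 0.4.0 and bcl2fastq. Per the file headers, MACS 2.1.0.20140616 ran without a control sample, with a shift of -75 bp, an extension of 150 bp, a q limit of 0.05 and 1 tag kept per position. The pileup signal, the fold enrichment (a ratio) and the −log10 q of each peak are the authors' deposited values, used only within a list.

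Python 3.11.15, pandas 2.3.3, numpy 2.4.6 and scipy 1.17.1 were used to overlap peaks on the 19 autosomes, take the longest overlapping counterpart, sum pieces and rank each list, reduced to 88159 peaks, with ties at their mean rank. The overlap steps were tested on simulated lists. Genes and promoters came from RefSeq tables of GRCm38.p6, the same sequence as mm10. Of 443 genes in the 19 lists 442 were found, and percentages over lists use autosomal genes. The gene table has no strand or exons, so a gene end is either end.

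The members and the gene lists were chosen with earlier results of these data known. Domains were named as the 12 longest by mean length, the 8 largest and 8 smallest mean length ratios of like sign, the 5 best and 5 worst mean ranks, up to 4 genes a list, and Smchd1. Not all of them are described, 1 domain whose length differed in opposite directions in the sexes is not reported here, and Cdh2, Memo1, Kansl1, the histone cluster and domains at the limits of the rule were added after their values were seen. Intervals are exact at 95% and cover counting only. Settings tried in the alternatives are given in the closing section.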

Additional observations from a re-analysis of the deposited data

Results flagged for a closer look

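At 8 domains the length was at least 20% shorter in deleted than in control females and at least 25% longer in deleted than in control males; the difference between the sexes was not tested. The log2 ratios of deleted over control were -0.65 in females and 0.43 in males at Pcf11, -0.69 and 0.65 at Gm51701, and -0.41 and 0.57 at Cd24a, a surface glycoprotein of young neurons. They were -0.46 and 0.37 at Ctdsp2 with Gm40798, -0.60 and 0.51 at Stc2, and -0.79 and 0.38 at Nlgn2 with Tmem256. Nsd1, a histone H3K36 methyltransferase, had -0.35 and 0.38, and Tafa5 had -0.81 and 1.10. All 8 were in pieces in the deleted female list and 7 in the control male list, the exception being Nsd1. The control female peak is whole by the rule, while the control male one need not be. The direction shared by all 8 is therefore fixed in part by the selection. The Tafa5 domain measured 2350 bp in control females, 1337 bp in deleted females, 1050 bp in control males and 2246 bp in deleted males. With pieces summed, its ratios were -0.13 and 0.11. The summed ratios were 0.27 and 0.73 at Nsd1 and -0.085 and -0.048 at Gm51701, so the sexes did not differ in direction at these. At the rest of the 8 the summed ratios stayed below 0 in females and above 0 in males.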

How the results depend on the processing

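No paired analysis was possible because each group has 1 pooled list, and for the same reason no replicate could be left out. With a domain minimum of 2000 bp, 141 domains remained, the median log2 length ratios were -0.036 in females and -0.025 in males, 2 were narrower in both sexes, 78.7% lay at a gene end, and the median rank differences were -2140 and -1381. With 1500 bp asked of every counterpart, these were 332 domains, -0.033, -0.018 and 0 narrower, with -1644 ranks in females. Starting from the deleted female list gave -0.027 in females, 2 wider and 3 narrower in both sexes and -1515 ranks in females. A mean length of 1500 bp over the lists gave -0.035 in females, 2 wider and 7 narrower. Summed pieces gave 1 wider and 2 narrower, and a fold of 1.5 gave 2 narrower. Centring on all shared peaks turned the ratios to 0.091 and 0.069 and left 5 narrower. A gene end window of 2.5 kb gave 88.6%, and ranking by fold enrichment gave -5524 and -3041 ranks. Domains in 1 piece everywhere, chosen after seeing the data, numbered 587, with -0.051 in females and 1 narrower. The cause of these shifts was not tested, apart from smaller counts that follow from fewer domains. The median rank difference was below 0 in both sexes in each setting for which it was recomputed. It was not recomputed for summed pieces, centring, lists of equal length, the fold of 1.5 and the gene end window. Asking for an overlap of 50% of the shorter peak changed none of the values recomputed. Taking members from lists of equal length changed none either, but this outcome was fixed in advance. Every domain and its longest counterparts already ranked within the 88159 strongest peaks of their lists. Depth was lower in the male lists, and its part in these values was not tested.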

Other observations

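Gene families with many domains were sought by symbol stem, counting stems with at least 3 domain genes and 20% of their members; they were picked for their counts, so the counts are a description only. All 3 Nsd genes, histone H3K36 methyltransferases, had a domain. Nsd1 measured 2191 and 1724 bp in control and deleted females and 1288 and 1671 bp in control and deleted males, Nsd2 1712, 1613, 1921 and 1561 bp, and Nsd3 1580, 1585, 1132 and 1170 bp. Nsd1 was in 2 pieces in both deleted lists, with sums of 2643 bp in females and 2141 bp in males. Of 5 Hnrnpa genes, RNA-binding proteins of splicing, 3 had one (Hnrnpa0, Hnrnpa1 and Hnrnpa2b1), as did 3 of 7 cullins (Cul1, Cul3 and Cul4a), the scaffolds of ubiquitin ligases. Other families were 3 of 8 Kat genes (Kat2b, Kat6a and Kat6b), 3 of 8 Setd genes, 5 of 16 Klf genes and 3 of 12 Sp genes, where Sp1 had 1708, 1669, 1704 and 1639 bp and Sp4 1925, 1840, 1863 and 1824 bp.

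Domains away from the ends of genes in the gene table included several at developmental and chromatin genes, named after their values were seen. Such a domain can still hold an annotated start. The one inside Stag1 held one, with 845 bp before the start and 1273 bp after it. The domain inside Stag1, a cohesin subunit, had 2119, 2089, 2127 and 2037 bp in control females, deleted females, control males and deleted males, and the one inside Auts2, a gene of neuronal development, 1976, 1946, 1947 and 1890 bp. Inside Dnmt3a, a DNA methyltransferase, the lengths were 2603, 2346, 1163 and 2080 bp, and inside Rbpj, the Notch effector, 2358, 2336, 1212 and 1057 bp. Both were in pieces in both male lists. The pieces summed to 2154 bp in control and 2312 bp in deleted males at Dnmt3a, and to 2077 and 1731 bp at Rbpj. The domain inside the imprinted gene Peg3 had 1748, 1740, 1682 and 1738 bp, and the one near Mir17 2361, 2327, 2305 and 2073 bp. On chromosome X, outside the rule, 29 of 56 control female peaks of at least 1500 bp met the same limits in the other lists. On the autosomes 896 of 1242 did, and the cause of the difference was not tested.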
